A study of Homo sapiens with 48 samples.

Results

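The effect of CsA on gene expression in HK-2 cells was set against the effect of Fk after 48 h, to separate what the compounds share from what CsA does alone. HK-2 is a human cell line that was immortalised from the epithelium of the renal proximal tubule. Of the 48 arrays of the series, 12 entered this comparison, as 4 groups of 3 arrays: CsA for 48 h, the vehicle controls of the CsA set at 48 h, Fk for 48 h, and the vehicle controls at 48 h that Fk shared with the compound Ra. The effect of a compound is the mean log2 value of its 3 arrays minus that of its own 3 controls, and the difference of effects is the CsA effect minus the Fk effect, in log2 units. The labels place both compounds in a group called Tox 1 and call the arrays of a group biological replicates, without saying whether they came from separate cultures. The p-values therefore measure the spread between arrays of a group. Unless stated otherwise, that spread was estimated over all 48 arrays of the series, so it is not that of the 12 compared arrays alone. The labels give neither doses nor full compound names, so each size holds for the doses used and no dose could be matched. The titles of the CsA set carry the words lab 3 and those of the Fk set name no lab, so compound, set and lab cannot be told apart, and the treated levels were never compared directly.

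CsA is the usual short name of ciclosporin A, and the design treats both compounds as calcineurin inhibitors. Calcineurin is a calcium-activated phosphatase with a catalytic and a regulatory subunit that dephosphorylates NFAT transcription factors and lets them enter the nucleus. Ciclosporin blocks it as a complex with cyclophilins, a family of prolyl isomerases, whereas the inhibitor FK506 blocks it as a complex with FK506-binding proteins, an unrelated family of prolyl isomerases. Both drug classes are used against transplant rejection, and both can injure the renal proximal tubule. Cyclophilins and FK506-binding proteins both help other proteins to fold, and some members of each family reside in the endoplasmic reticulum.

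The data were log2 intensities of 11356 genes. The upper quartiles of the 12 arrays ran from 6.948 to 7.152, and correlations between arrays of a group were 0.9855 or higher. Epithelial markers were measured for 10 of 10 genes, with a summed log2 level of 104.7 to 112.3 in the CsA controls and 107.7 to 111.4 in the Fk controls. Of 22 markers of differentiated proximal tubule, 5 were measured (GGT1, DPP4, SLC4A4, PDZK1 and PAX8), whereas LRP2, CUBN, AQP1 and SLC34A1, which define the segment in the kidney, were not among the genes that reached log2 4 on at least 3 arrays. Of 12 fibroblast markers 5 were measured, of 12 endothelial markers 3, and of the 12 leukocyte markers and the 12 markers of other nephron segments 0. The control groups themselves differed in 1311 genes (11.5% of those tested), 564 higher and 747 lower in the CsA set (limma, Benjamini-Hochberg adjusted p under 0.05, which is the meaning of called throughout).

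No single gene passed the test of the difference of effects. Of 11356 genes, 0 were called (0% of those tested, limma with Benjamini-Hochberg adjustment, lowest adjusted p = 0.1052), while 696 genes (6.13%) had an unadjusted p under 0.05. The 95% interval of the difference was wide, with a median half-width of 0.738 on the log2 scale. It lay inside -1 to 1 for 5515 genes (48.6%), so for the other genes a difference of effects of 2-fold in some direction lay within the interval. It lay wholly beyond 1 or -1 for 5 genes, CCM2L, ASF1B, ANKRD36B, LTBP2 and TIAM1, and in all 5 the CsA effect was the lower. Arrays of the same replicate number deviated together in every pair of the CsA set, but not in every pair of the Fk set, where treated and control arrays at 48 h correlated for numbers 1 and 3 (0.759 and 0.584) and not for number 2 (-0.02). With the number as a block in the CsA set, 6 genes were called (0.0528%): ASF1B, CCM2L, ANKRD36B, MIR146A and HMGA2 lower and THUMPD3-AS1 higher under CsA relative to Fk. With a block in both sets, 20 genes were called (0.176%), of which 19 had a CsA effect below 0 and an Fk effect above 0. A call in the difference favours opposite signs, so the signs are a description.

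Taken alone, the CsA effect was called in 34 genes that rose (0.299%) and 82 that fell (0.722%), and the Fk effect in 0 genes (0%), with 311 genes (2.74%) at an unadjusted p under 0.05. These counts rested on single arrays. Without replicate 1 of CsA, 99 genes rose and 292 fell, without replicate 2 of CsA 1 rose and 1 fell, and without replicate 1 of its controls 2 rose and 3 fell. Fitted alone, the 12 arrays gave 0 calls under CsA, with 1033 genes at an unadjusted p under 0.05 (limma). Across all genes the CsA and Fk effects, which share no array, were weakly related (Pearson's r 0.141, Spearman's rho 0.116, the same sign in 53.5% of 11356 genes, which are not independent replicates). The plot of both effects gene by gene shows the replication genes spread along the CsA axis and the cholesterol genes close to the line of equal effects.

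**Figure D1:**
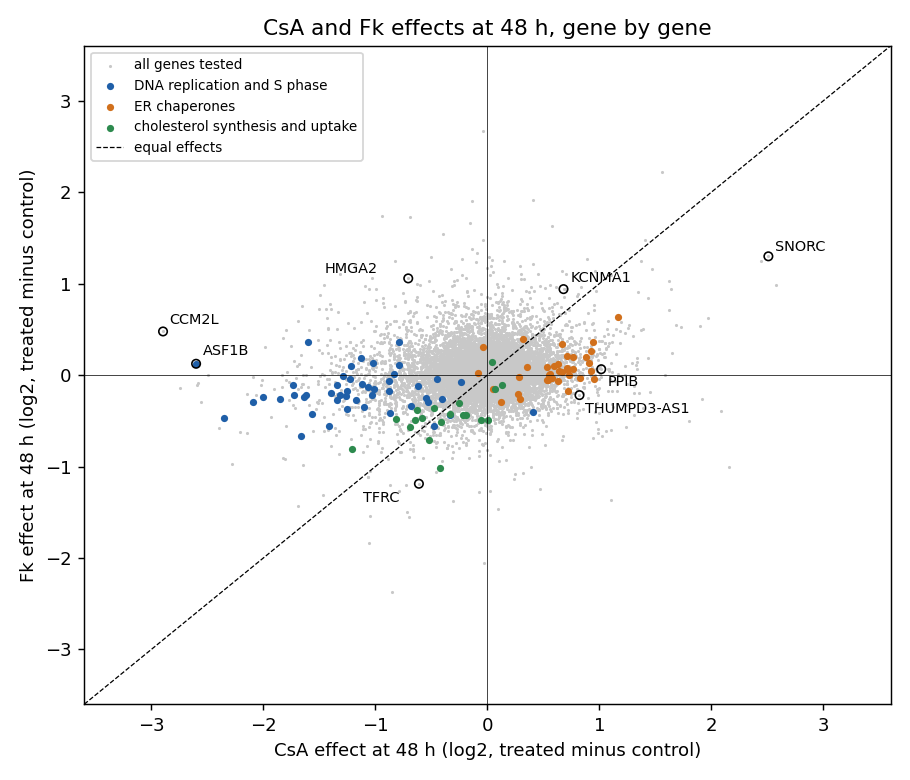
Each point is a gene, with its CsA effect on the x axis and its Fk effect on the y axis (both log2, treated minus control at 48 h, 3 arrays per group). Grey points are all 11356 genes, coloured points are the members of 3 gene lists, circles mark genes named in the text, and the dashed line marks equal effects. Of the 47 replication genes 46 lie left of the vertical axis, at Fk effects of -0.669 to 0.365, and of the 36 ER genes 34 lie right of it.

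The genes called under CsA alone were then followed in the Fk arrays, which do not enter the CsA effect but share the fit's estimate of the spread. Choice by the CsA effect favours a larger size under CsA than under Fk, so the sizes side by side are a description. For the 82 genes that fell, the median CsA effect was -1.18 and the median Fk effect -0.138, with Fk effects between -0.52 and 0.592. The Fk effect was below 0 in 56 of the 82, against 5246 of all 11356 genes. For the 34 genes that rose, the medians were 0.978 under CsA and 0.0498 under Fk, and 20 of 34 had an Fk effect above 0, against 53.8% of all genes. Only 3 of the 116 had an Fk effect in the same direction and over 0.5 of the CsA effect in size: DCLRE1B (-0.99 and -0.52), a nuclease that protects telomeres, HID1 (0.93 and 0.55), a Golgi-associated protein of secretory granule formation, and SNORC (2.51 and 1.30), a cartilage proteoglycan. HID1 and SNORC had control values under log2 4 in both sets, so their sizes are uncertain. Beside these effects, the sets' controls differed: among the 82 genes the median control level was 0.332 higher in the CsA set. Of the 82, 10 were called higher and 0 lower in those controls, against 564 higher and 747 lower of all 11356 genes. The part of that starting level in the result was not tested.

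DNA replication genes formed the largest group that fell under CsA. Of 47 measured genes of DNA replication and S phase, 24 fell under CsA, against 0.722% of all genes, and 0 under Fk. A CsA effect below 0 was found in 46 of them, against 5624 of all 11356 genes. The median effects were -1.17 under CsA and -0.217 under Fk, and the median difference of effects was -1.03, below 0 in 44 of 47 genes, against -0.0243 over all genes tested. Unadjusted p for the difference was under 0.05 in 31 of the 47, against 6.13% of all genes. All 31 were lower under CsA, but 0 were called. The 24 calls also rested on single arrays: 33 without replicate 1 of CsA, 1 without its replicate 2, 1 without replicate 1 of its controls and 0 with the 12 arrays alone, where 39 of 47 had an unadjusted p under 0.05. Fk effects of the list were below 0 in 39 of 47 genes, against 5246 of all 11356, but its genes are not independent replicates. Relative to the mean of the Fk controls, the list median was -0.43, 0.0021 and 0.462 in the controls numbered 1, 2 and 3. With Fk it was -0.728, -0.0166 and 0.30, so the Fk groups overlapped and the level differed by replicate number. In these bulk samples, fewer cells in S phase and less RNA per cell cannot be told apart.

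ASF1B, the histone chaperone that delivers new histones to replicating DNA, had the lowest p of the comparison. It measured 6.97, 4.31 and 5.79 with CsA and 8.66, 7.85 and 8.37 in the CsA controls. It measured 6.94, 8.16 and 8.05 with Fk and 7.03, 7.68 and 8.07 in the Fk controls. All CsA arrays lay below all their controls, and the Fk arrays overlapped theirs. The control means of ASF1B were lower at 48 h, 8.29 (CsA set) and 7.59 (Fk set), than at 12 h, 9.92 and 9.77. Those of MCM10 were 5.69 and 5.53 against 8.59 and 8.63, and those of RRM2 12.52 and 11.47 against 13.88 and 13.55. The part of this control level in the effects was not tested. The CsA effect of ASF1B was -2.60 (SE 0.38, limma adjusted p = 0.000684), the Fk effect 0.12, and the difference -2.72 (95% interval -3.82 to -1.63, limma adjusted p = 0.1052, 0.022 with the block in the CsA set).

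Licensing and helicase genes had lower CsA effects as well, at higher p than ASF1B. MCM10, which loads polymerase alpha at origins, measured 3.22, 2.72 and 4.08 with CsA against 6.54, 4.58 and 5.94, and 3.53, 5.47 and 6.19 with Fk against 4.76, 5.80 and 6.03. Its CsA arrays did not overlap their controls, its Fk arrays did, and the difference was -1.88 (SE 0.71). Part of its CsA values lay under log2 4, the level used as the filter, where the size is uncertain. MCM4, a subunit of the replicative helicase, had effects of -1.73 and -0.22, and GINS2, a subunit of the complex that activates it, -1.62 and -0.22. CDC6, which loads the helicase, was an exception, with a CsA effect of 0.41, an Fk effect of -0.40 and overlapping groups in both sets.

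Genes of nucleotide supply and chromatin replication fell with them. RRM2, the regulated subunit of ribonucleotide reductase, measured 11.80, 9.23 and 10.99 with CsA against 13.20, 11.82 and 12.54, and 10.16, 11.43 and 12.05 with Fk against 10.82, 11.46 and 12.12. Its CsA effect was -1.85 (limma adjusted p = 0.04932) and its Fk effect -0.26. UHRF1, which carries DNA methylation through replication, fell by 2.00 with CsA (limma adjusted p = 0.01603) and had an Fk effect of -0.24. HELLS, a chromatin remodeller of the same process, fell by 2.09 (limma adjusted p = 0.01585) and had an Fk effect of -0.29. PCNA, the sliding clamp, fell by 1.25 (limma adjusted p = 0.01072) and had an Fk effect of -0.17.

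E2F1, the transcription factor that drives this gene programme, measured 5.94, 5.52 and 5.59 with CsA and 6.73, 7.06 and 6.65 in the controls. With Fk it measured 6.74, 6.55 and 6.76, and 6.34, 6.37 and 6.77 in the controls. All CsA arrays lay below their controls, and the Fk arrays overlapped theirs. The difference was -1.32 (95% interval -1.96 to -0.67, unadjusted p = 0.0001973, limma adjusted p = 0.1724). Because E2F factors act at promoters, RefSeq promoters (GRCh38.p14, 250 bases before to 50 after the start) were searched on both strands for TTTCCCGC, TTTCGCGC, TTTGCCGC and TTTGGCGC, core E2F letters. These letters stood in 514 of 9370 promoters of tested genes (5.49%), in 21 of 67 promoters of genes that fell with CsA (31.3%), in 1 of 27 of genes that rose (3.7%) and in 22 of 41 of the replication list (53.7%). The replication list holds 24 of the 82 genes that fell, so the shares of these sets overlap and are not separate results. A share for the fallen genes outside the list was not computed. A match describes the sequence and is not a measured binding site.

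The promoter stretches of 4 genes that fell with CsA are shown because they carry these letters close to the start. They were picked for low differences of effects, among the replication genes considered for display that fell and hold such letters there. Not every replication gene that fell was considered, so the 4 need not have the lowest differences of all. Each stretch is the 120 bases that end just before the start, with the E2F letters of either strand in capitals.
HELLS, chr10:94545668-94545787, plus strand: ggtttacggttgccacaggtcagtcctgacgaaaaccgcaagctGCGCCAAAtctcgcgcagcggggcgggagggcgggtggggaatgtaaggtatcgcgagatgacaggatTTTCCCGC
UHRF1, chr19:4909381-4909500, plus strand: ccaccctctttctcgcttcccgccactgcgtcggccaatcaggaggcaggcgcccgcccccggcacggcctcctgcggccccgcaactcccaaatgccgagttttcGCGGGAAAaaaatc
GINS2, chr16:85688955-85689074, minus strand: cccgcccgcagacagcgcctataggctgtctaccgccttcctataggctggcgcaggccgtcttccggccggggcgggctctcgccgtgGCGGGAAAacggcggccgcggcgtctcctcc
E2F1, chr20:33686386-33686505, minus strand: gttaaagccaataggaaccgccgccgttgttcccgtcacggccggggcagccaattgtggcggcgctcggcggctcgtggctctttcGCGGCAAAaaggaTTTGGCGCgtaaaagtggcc
HELLS and E2F1 hold 2 matches each in the stretch, and UHRF1 and GINS2 hold 1. Of the 20 replication genes that fell with CsA and were considered for display, 13 hold the letters in the searched window and 9 in the stretch.

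Genes of the replication stress response and homologous recombination behaved like the replication genes. Of 22 measured, 7 fell with CsA, against 0.722% of all genes, and 0 with Fk. The median effects were -0.92 and -0.171, and the difference of effects was below 0 in 21. The 7 calls became 13 without replicate 1 of CsA and 0 without its replicate 2, without replicate 1 of its controls, or with the 12 arrays alone (limma, with 12, 15 and 13 of 22 at an unadjusted p under 0.05). BRIP1, the helicase partner of BRCA1, measured 5.91, 2.63 and 5.27 with CsA against 7.98, 6.17 and 7.90, and 4.87, 7.24 and 8.10 with Fk against 5.89, 7.13 and 7.62. All CsA arrays lay below their controls and the Fk arrays overlapped theirs, with a difference of -2.60 (SE 0.83). BLM, RMI1 and RMI2, members of the complex that dissolves recombination intermediates, had CsA effects of -2.11, -0.97 and -1.65 and Fk effects of -0.30, -0.30 and 0.00.

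Mitotic genes shifted less, and 1 of 40 was called lower under CsA, against 0.722% of all genes. All 40 measured genes of G2 and mitosis had a difference of effects below 0, with a range of -1.46 to -0.139 and a median of -0.778. Of these, 6 had an unadjusted p under 0.05, against 6.13% of all genes. The median effects were -0.774 under CsA and 0.000139 under Fk. ESPL1, the separase that splits sister chromatids, was the called gene, with 6.71, 5.16 and 7.02 with CsA against 7.72, 7.49 and 8.05, a CsA effect of -1.46 (limma adjusted p = 0.01812) and an Fk effect of 0.00. MKI67, the proliferation antigen, had effects of -1.06 and 0.17, and PLK1, a mitotic kinase, -0.24 and 0.59, with overlapping groups for both. The level of this list differed by replicate number in the Fk set, where its median relative to the mean of the controls was -0.477, -0.0244 and 0.527 in the controls numbered 1, 2 and 3 and -0.629, 0.0424 and 0.527 with Fk.

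**Figure D2:**
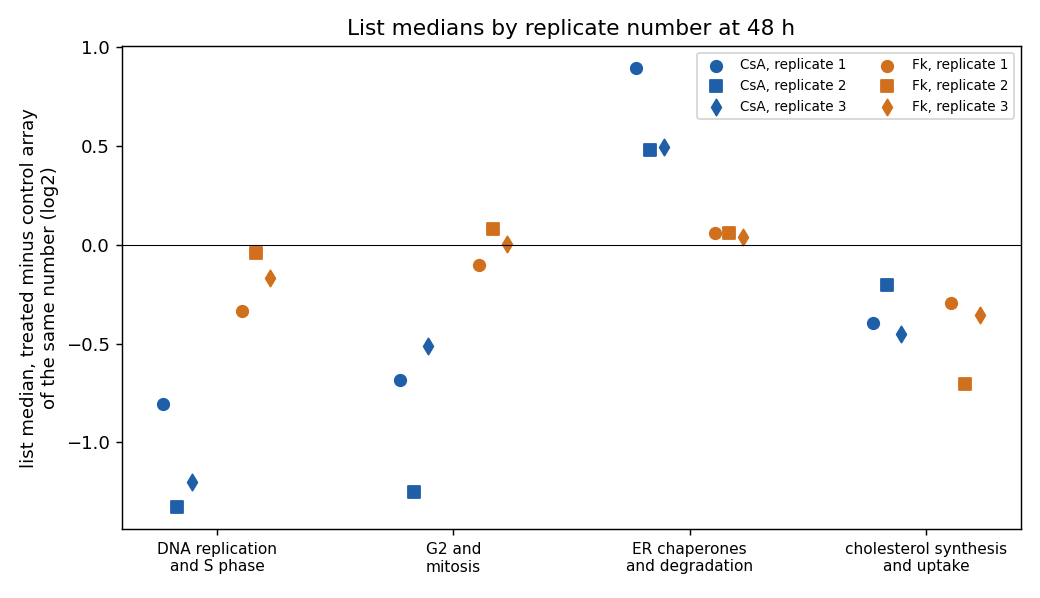
For 4 gene lists, each point is the median over the list's genes of the treated array minus the control array of the same replicate number (log2, 48 h), in blue for CsA and in orange for Fk. The 3 CsA points lie below the 3 Fk points for replication (-0.807, -1.33 and -1.20 against -0.333, -0.0414 and -0.17) and for mitosis, and above them for ER chaperones, and for cholesterol synthesis the CsA and Fk points overlap in range.

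Set against the control array of the same number, the replication list had medians of -0.807, -1.33 and -1.20 under CsA and -0.333, -0.0414 and -0.17 under Fk. The mitotic list had -0.683, -1.25 and -0.511 under CsA and -0.103, 0.0805 and 0.00187 under Fk. Each of the 3 CsA values lay below each of the 3 Fk values in both lists. Number 2 did not pair the Fk arrays with their controls, so the Fk values are given as a description.

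Genes of the endoplasmic reticulum (ER), where secreted proteins are folded, had higher CsA than Fk effects. Of 36 measured genes of ER chaperones, translocation and degradation, 33 had a difference of effects above 0, with medians of 0.639 under CsA, 0.0478 under Fk and 0.571 for the difference, against -0.0243 over all genes. The called genes were 2 under CsA, SEC61B and SSR2, against 0.299% of all genes called higher, and 0 under Fk or in the difference. In the difference 7 had an unadjusted p under 0.05, against 6.13% of all genes. SEC61B, a subunit of the channel that carries new proteins into the ER, measured 12.96, 13.36 and 12.99 with CsA against 12.09, 12.65 and 12.41, and 12.83, 12.48 and 12.02 with Fk against 13.005, 12.50 and 12.36. With CsA all arrays lay above all controls, and the Fk arrays overlapped theirs. The difference was 0.90 (95% interval 0.40 to 1.40, limma adjusted p = 0.3258). SSR2, a subunit of the translocon-associated complex, rose by 0.72 with CsA (limma adjusted p = 0.03593) with an Fk effect of 0.06, and its control level was 0.91 higher in the CsA set.

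HSPA5, the main ER chaperone (BiP), did not pass the test. It measured 15.35, 15.63 and 15.67 with CsA against 14.83, 15.40 and 15.56, and 15.65, 15.50 and 14.64 with Fk against 15.68, 15.66 and 14.53. Both pairs of groups overlapped, and the difference of 0.31 had a 95% interval of -0.62 to 1.24. DDIT3 (CHOP), the transcription factor of severe ER stress, had effects of 0.28 and -0.13 and an interval of the difference from -1.84 to 2.66. Both genes were already high in the 48 h controls. The control means of DDIT3 were 13.16 (CsA set) and 13.43 (Fk set) at 48 h, against 7.77 and 8.46 at 12 h. Those of HSPA5 were 15.26 and 15.29, against 12.98 and 13.66. The part of this control level in the effects was not tested. The list of 33 ATF4 and CHOP targets had medians of 0.276 and 0.0583 and 0 calls under either compound. Of all genes, 0.299% were called higher and 0.722% lower under CsA, and 0% under Fk.

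The ER stress element, CCAAT and CCACG with 9 bases between them, stood in 14 of 9370 promoters of tested genes (0.149%) and in 7 of 32 of the ER list (21.9%). It stood in 0 of 27 promoters of genes that rose with CsA and in 0 of 67 of those that fell. The 7 genes were CRELD2, CANX, CALR, ERO1B, HSP90B1, HSPA5 and XBP1, with differences of effects from 0.20 to 0.77 and 0 calls. The stretch of CRELD2, a secreted ER stress protein with the highest difference of the 7, and that of HSP90B1, the ER paralogue of HSP90, show the element on the opposite strand, so the capitals read CGTGG and ATTGG.
CRELD2, chr22:49918514-49918633, plus strand: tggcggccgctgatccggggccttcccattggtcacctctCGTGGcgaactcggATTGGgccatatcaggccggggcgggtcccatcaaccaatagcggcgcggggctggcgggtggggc
HSP90B1, chr12:103930290-103930409, plus strand: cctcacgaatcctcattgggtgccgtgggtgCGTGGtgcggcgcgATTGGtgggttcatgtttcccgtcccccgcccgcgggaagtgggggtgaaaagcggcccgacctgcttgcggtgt

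The proteins that bind the drugs were followed as levels of their own mRNA. Of 15 cyclophilins, 1 was called higher under CsA, against 0.299% of all genes. This was PPIB, the cyclophilin of the ER. It measured 13.56, 13.92 and 13.81 with CsA against 12.10, 13.16 and 12.98, and 13.67, 13.42 and 12.59 with Fk against 13.77, 13.13 and 12.57. In the CsA set the groups did not overlap, and in the Fk set they did. PPIB rose by 1.02 under CsA (limma adjusted p = 0.04169), its Fk effect was 0.06, and the difference of 0.95 (95% interval 0.22 to 1.69) was not called (limma adjusted p = 0.6109). PPIA, the abundant cytosolic cyclophilin, had effects of -0.18 and -0.04 and an interval of -0.41 to 0.11. PPIF, the mitochondrial cyclophilin, had effects of -0.20 and 0.00 and an interval of -1.31 to 0.91.

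Of 13 FK506-binding proteins, 0 were called under either compound. Of all genes, 0.299% were called higher and 0.722% lower under CsA, and 0% under Fk. FKBP1A (FKBP12) had effects of 0.44 under CsA and 0.08 under Fk, with an interval of the difference from -0.13 to 0.86. It was higher in the Fk controls by 0.79 (limma adjusted p = 0.002462). FKBP4 and FKBP5, cochaperones of steroid receptors, had differences of -0.44 and -0.22. FKBP14, an ER member of the family, measured 10.10, 10.53 and 10.29 with CsA against 8.58, 9.58 and 9.83, with effects of 0.98 and 0.04, and did not pass the test.

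Calcineurin and its direct transcriptional readout did not pass the test of the difference, as no gene tested did. Of 13 measured genes of calcineurin subunits, RCAN and NFAT, 0 were called under CsA, under Fk or in the difference. Of all genes, 0.299% were called higher and 0.722% lower under CsA, and 0% under Fk or in the difference. At these shares, 0 calls in 13 genes say little about the list. The medians were -0.0636, 0.0176 and -0.206. RCAN1, the calcineurin regulator that NFAT itself induces, measured 8.39, 8.88 and 8.39 with CsA against 8.54, 8.55 and 8.63, and 9.18, 9.40 and 7.96 with Fk against 8.83, 9.01 and 9.04. All groups overlapped, and the difference was 0.09 (95% interval -0.76 to 0.94). Its sign turned to -0.35 without replicate 3 of Fk. The catalytic subunits PPP3CA and PPP3CB had differences of -0.21 (95% interval -0.66 to 0.24) and -0.34 (95% interval -0.88 to 0.21). The regulatory subunit PPP3R1 had 0.37 (95% interval -1.04 to 1.78). NFATC3 and NFAT5 had differences of -0.39 and -0.35. For PPP3CA, PPP3CB, PPP3R1, RCAN1, NFATC3 and FKBP1A a further probe set of the gene gave the opposite sign.

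**Figure D3:**
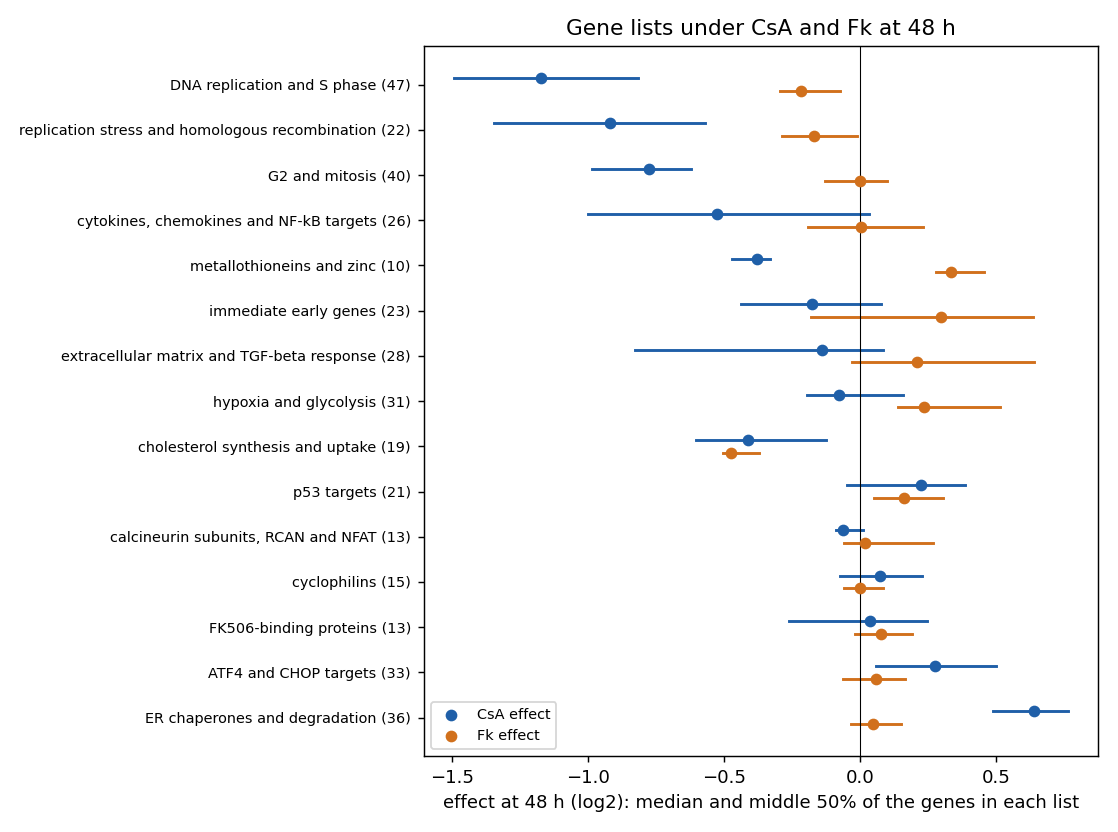
For 15 gene lists, dots give the median CsA effect (blue) and Fk effect (orange) at 48 h in log2 units over the measured genes, whose number is in parentheses, and lines span the middle 50% of the genes. The replication lists lie at -1.17 and -0.92 under CsA, the ER list at 0.639, and the cholesterol list at -0.411 under CsA and -0.473 under Fk.

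All 10 genes of lowest p with a lower CsA effect had effects of opposite sign. They were ranked on the difference of effects, which favours opposite signs, so nothing was read from the signs. CCM2L, an endothelial relative of a vascular signalling adaptor, measured 5.61, 2.56 and 2.41 with CsA against 6.84, 6.24 and 6.19, and 6.47, 6.99 and 6.61 with Fk against 6.14, 6.07 and 6.43. The CsA arrays lay below and the Fk arrays above all their controls. The difference was -3.37 (95% interval -4.77 to -1.98, limma adjusted p = 0.1052, 0.0276 with the block in the CsA set). Its CsA mean lay under log2 4, so the size is uncertain.

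HMGA2, a chromatin architectural protein of growing and transformed cells, was lower with CsA and higher with Fk. It measured 11.31, 10.58 and 11.17 with CsA against 11.53, 11.44 and 12.21, and 12.12, 12.60 and 12.88 with Fk against 10.98, 11.19 and 12.26. The CsA arrays lay below their controls, and 1 Fk array overlapped its controls. Effects were -0.71 and 1.06, and the difference was -1.76 (95% interval -2.54 to -0.99, limma adjusted p = 0.1168, 0.0468 with the block in the CsA set). All 4 further probe sets of the gene had the same sign.

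TIAM1, an exchange factor that activates the GTPase Rac, measured 4.38, 3.81 and 4.38 with CsA against 6.25, 5.17 and 6.23, and 6.77, 6.66 and 6.70 with Fk against 5.74, 6.34 and 6.28. CsA arrays lay below and Fk arrays above their controls, and the CsA effect of -1.69 was called (limma adjusted p = 0.014). CELSR1, a cadherin of planar cell polarity, measured 7.12, 7.2 and 6.80 with CsA against 7.59, 7.32 and 8.01, and 8.70, 8.93 and 8.98 with Fk against 7.64, 7.92 and 8.11. TGFA, a ligand of the epidermal growth factor receptor, measured 8.93, 8.90 and 8.62 with CsA against 9.44, 8.96 and 8.98, and 9.87, 10.66 and 10.66 with Fk against 9.38, 9.11 and 9.79. In both genes the groups separated in opposite directions, with the larger effect under Fk (0.98 and 0.97), and the differences were -1.58 and -1.28. Against the same controls, the compound Ra raised HMGA2 by 1.78, TGFA by 1.05, CELSR1 by 0.79 and GALNT14 by 1.19 (limma adjusted p from 8.265e-05 to 0.0207), and Fk and Ra share these control arrays. Ra also raised ASF1B by 1.98 (limma adjusted p = 0.0006939), whereas its effects on CCM2L and TIAM1, 0.65 and 0.19, were not called. Replicate 2 of Ra had the lowest upper quartile of the series (6.203). GALNT14, which starts O-linked glycosylation, and RASSF8-AS1, an antisense transcript, had effects of opposite sign and differences of -1.31 and -1.59. RASSF8-AS1 was 1.31 higher in the CsA controls (limma adjusted p = 0.001254).

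In HPRT1 and B4GALT6 the CsA effect carried the difference. HPRT1, the purine salvage enzyme, measured 11.39, 10.91 and 11.07 with CsA against 12.02, 11.63 and 11.91, and 11.52, 11.69 and 12.07 with Fk against 11.36, 11.48 and 11.87. The CsA arrays lay below their controls, and the Fk arrays overlapped theirs. HPRT1 fell by 0.73 with CsA (limma adjusted p = 0.01067) and its difference was -0.92 (95% interval -1.33 to -0.50). B4GALT6, which makes lactosylceramide, fell by 1.58 with CsA (limma adjusted p = 0.005551) with an Fk effect of 0.09.

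Of the remaining genes called with the block in the CsA set, ANKRD36B is a member of a family of near-identical copies, so its values are uncertain. It measured 6.17, 5.49 and 4.67 with CsA against 7.02, 6.89 and 5.99, and 6.24, 7.07 and 6.76 with Fk against 4.67, 5.47 and 6.36, with a difference of -2.38 (limma adjusted p = 0.0276 with the block). The probe set annotated to MIR146A, which does not measure the mature microRNA, measured 3.70, 4.25 and 7.40 with CsA against 5.30, 7.18 and 8.84. In the Fk set it stayed near the lower end of the scale, with 2.81, 3.93 and 2.91 against 2.9, 2.91 and 2.91, and its control level was 4.19 higher in the CsA set.

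**Figure D4:**
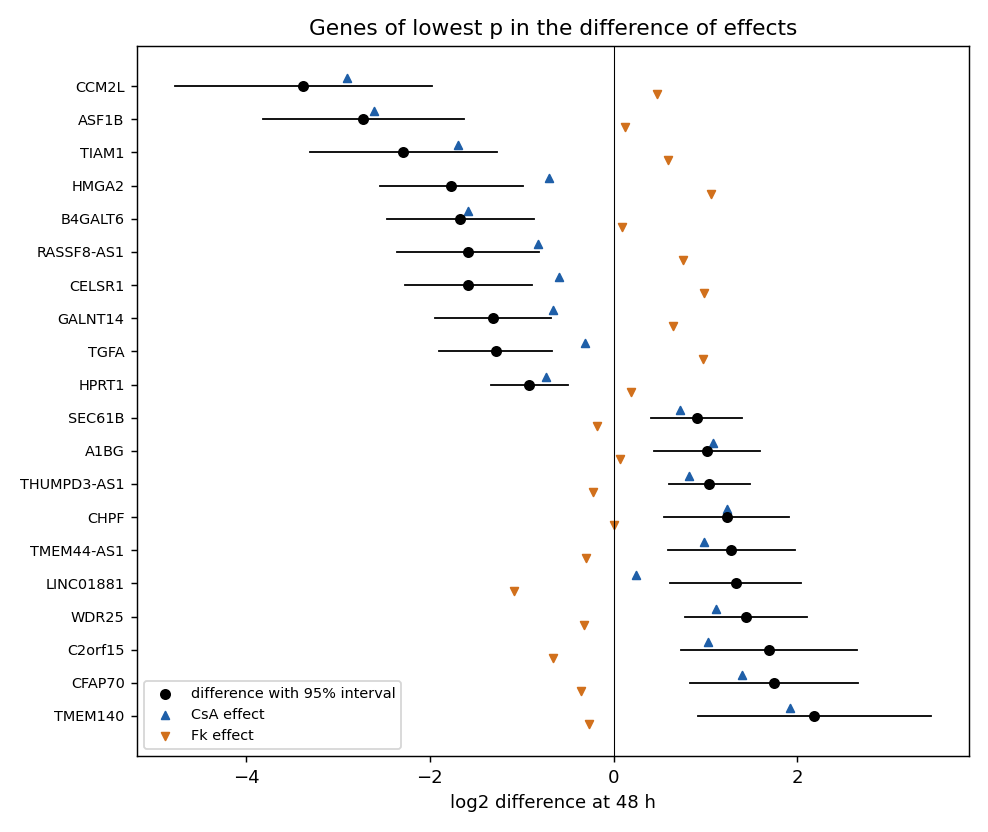
The 10 genes of lowest p in each direction of the difference of effects at 48 h, as black dots with 95% intervals (log2), with the CsA effect as blue and the Fk effect as orange triangles. None was called at an adjusted p under 0.05. In the upper 10 genes, all with a lower CsA effect, every blue triangle lies below 0 and every orange triangle above 0. Ranking on the difference favours such opposite signs.

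Among genes with the higher CsA effect, THUMPD3-AS1, an antisense long non-coding RNA, had the lowest p. It measured 5.17, 5.60 and 4.74 with CsA against 4.56, 4.29 and 4.20, and 3.90, 3.90 and 3.89 with Fk against 4.45, 3.95 and 3.94. CsA arrays lay above and Fk arrays below all their controls, although the Fk values were at the filter level. THUMPD3-AS1 rose by 0.82 with CsA (limma adjusted p = 0.008182), and the difference was 1.04 (95% interval 0.60 to 1.48, limma adjusted p = 0.1052, 0.0276 with the block in the CsA set). The 2 further probe sets of the gene had the same sign but smaller differences, 0.352 and 0.358, so the size is uncertain. WDR25 measured 6.00, 7.03 and 6.61 with CsA against 5.32, 5.33 and 5.65 and overlapped its controls under Fk, with a CsA effect of 1.12 (limma adjusted p = 0.0125) and a difference of 1.44. CHPF, which extends chondroitin chains, rose by 1.23 with CsA (limma adjusted p = 0.01038) with an Fk effect of 0.00, and A1BG, a plasma glycoprotein, by 1.08 (limma adjusted p = 0.008182) with an Fk effect of 0.07. TMEM140, CFAP70 and TMEM44-AS1 rose by 1.92, 1.39 and 0.98 with CsA and had Fk effects of -0.27, -0.36 and -0.30, and their lower groups lay near or under log2 5. C2orf15 had effects of 1.03 and -0.66, neither called. LINC01881 differed from these in that the Fk effect of -1.08 made up most of its difference of 1.33, with a CsA effect of 0.24.

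**Figure D5:**
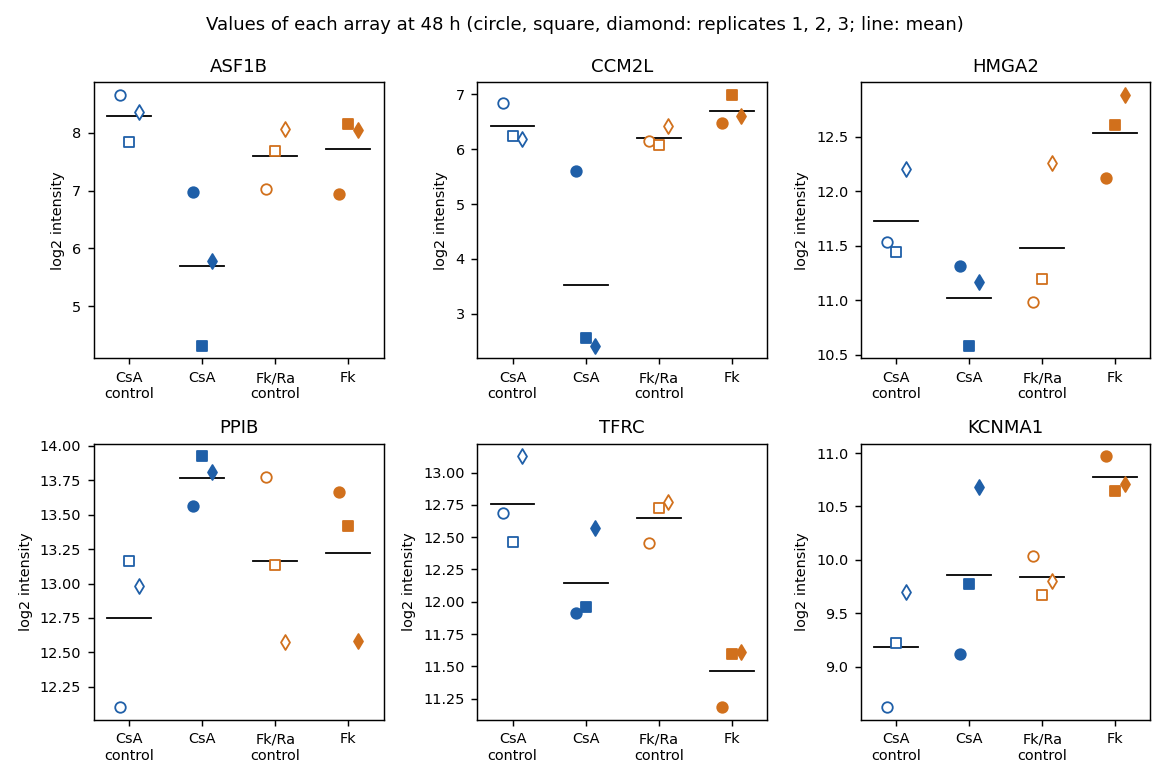
Log2 intensities of every array at 48 h for 6 genes, open symbols for controls, filled symbols for treated arrays, blue for the CsA set and orange for the Fk set. Symbol shapes give replicate numbers and lines give group means. ASF1B and CCM2L are lower in the CsA arrays only, HMGA2 separates in opposite directions apart from 1 overlapping Fk control, PPIB is higher in the CsA arrays only, and TFRC and KCNMA1 shift the same way in both sets.

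Shared effects were looked for in the mean of both effects. There, 1 gene was called (0.00881% of those tested), OR7E156P, a pseudogene of a large olfactory receptor family whose copies may share probes, with a mean effect of 0.59 (limma adjusted p = 0.03413). It measured 5.48, 5.98 and 6.23 with CsA against 4.95, 4.99 and 4.94, and 5.42, 5.08 and 5.27 with Fk against 4.95, 4.96 and 5.15, so the Fk arrays overlapped their controls and the CsA effect of 0.94 was the larger. With the block in the CsA set, 8 genes were called (0.0704%). One of them, ASF1B, had effects of opposite sign and is not shared, and the others had effects of the same sign.

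TFRC, the transferrin receptor that takes up iron, was lower with both compounds. It measured 11.91, 11.96 and 12.57 with CsA against 12.69, 12.46 and 13.13, and 11.18, 11.59 and 11.61 with Fk against 12.45, 12.72 and 12.77. The Fk arrays lay below all their controls, and 1 CsA array overlapped its controls. The mean effect was -0.90 (limma adjusted p = 0.1246, 0.0174 with the block in the CsA set), and the interval of the difference ran from -0.27 to 1.43. KCNMA1, the pore of the large-conductance potassium channel, was higher with both. It measured 9.12, 9.78 and 10.69 with CsA against 8.62, 9.23 and 9.69, and 10.97, 10.64 and 10.71 with Fk against 10.03, 9.67 and 9.81, with a mean effect of 0.81 (limma adjusted p = 0.202, 0.0257 with the block in the CsA set). HID1, SNORC, LINGO2 and CIMAP1B had higher mean effects of 0.74, 1.90, 1.22 and 1.78 with adjusted p between 0.0154 and 0.0257 with that block (limma), and in all 4 the CsA effect was the larger. LINGO2 values in the Fk set lay under log2 4, and HID1 and SNORC had control values under log2 4 in both sets, where sizes are uncertain. SNORC and CIMAP1B overlapped their controls in both sets. For TFRC, KCNMA1 and CIMAP1B, 1 further probe set of the gene gave a difference of effects of opposite sign (-0.07, 0.69 and -0.80). The order of the CsA and Fk effects in these genes therefore depends on the probe set.

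Cholesterol genes had median effects below 0 under both compounds. Of 19 measured genes of cholesterol synthesis and uptake, 15 had both effects below 0, with medians of -0.411 under CsA and -0.473 under Fk and a median difference of 0.0946. No member was called under either compound or in the difference. Of all genes, 0.299% were called higher and 0.722% lower under CsA, and 0% under Fk or in the difference. HMGCS1, which makes the precursor of mevalonate, measured 10.04, 9.80 and 9.35 with CsA against 10.97, 10.46 and 10.21, and 9.15, 9.82 and 10.61 with Fk against 9.44, 10.53 and 11.06. Only the CsA groups were apart, with a difference of -0.33 (95% interval -1.45 to 0.78). A further probe set of HMGCS1 gave a difference of 0.18. ACAT2, which makes acetoacetyl-CoA for the pathway, had effects of -1.21 and -0.81, and SQLE, the squalene epoxidase, -0.69 and -0.57. The 21 p53 targets had medians of 0.224 and 0.163, also with 0 calls. CDKN1A, the p53-induced inhibitor of cyclin-dependent kinases, measured 9.96, 10.79 and 10.80 with CsA against 8.86, 9.73 and 9.97, with a CsA effect of 1.00 and an Fk effect of 0.29, neither called, and it was 2.15 lower in the CsA controls than in the Fk controls (limma adjusted p = 0.00116).

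Separation of the groups gave a further view without a model. The 3 CsA arrays did not overlap their controls in 1618 genes (14.2%), and the 3 Fk arrays did not overlap theirs in 1144 (10.1%). Both did so in the same direction in 71 genes (0.625%), 45 higher and 26 lower with both compounds, and in opposite directions in 43 (0.379%), 32 of them lower with CsA and higher with Fk. These counts are a description, and nothing was read from their size. SCEL, a cornified envelope protein, was higher with both, with 9.98, 10.97 and 11.38 with CsA against 8.61, 9.97 and 9.52, and 10.28, 9.92 and 9.12 with Fk against 8.75, 7.86 and 8.30. UPP1, the uridine phosphorylase, had effects of 1.34 and 0.91, and TGFB1, the profibrotic cytokine, 0.48 and 0.79. KRT20, a keratin induced in injured tubules, was lower with both, with effects of -1.46 and -1.31. SOX9, a regulator of tubular repair, separated in opposite directions, with 4.55, 4.88 and 4.63 with CsA against 5.12, 5.11 and 5.32, and 5.18, 5.97 and 7.15 with Fk against 4.57, 4.94 and 4.91. VCAM1, a leukocyte adhesion molecule, had effects of -1.41 and 0.77 on control levels that were 3.78 higher in the CsA set (limma adjusted p = 0.0001708). These genes were picked from that count after their values were seen, and none was called in the difference.

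Several lists had a median CsA effect below and a median Fk effect above 0, with 0 calls in the difference. Of 31 genes of hypoxia and glycolysis, 28 had a difference below 0, with medians of -0.0766 and 0.234. P4HA1, a collagen prolyl hydroxylase induced by hypoxia, had the lowest adjusted p of the Fk effect (limma, 0.08486). It measured 11.34, 11.33 and 11.48 with Fk against 10.72, 9.95 and 10.69, and 10.53, 10.51 and 10.76 with CsA against 10.34, 10.40 and 10.41, so both compounds lay above their controls. SLC2A1, the glucose transporter GLUT1, had effects of 0.29 and 1.20. PFKFB3, the activator of phosphofructokinase, measured 8.32, 7.43 and 8.69 with CsA against 9.40, 8.88 and 9.68, with effects of -1.17 and 0.33.

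The 28 genes of extracellular matrix and the TGF-beta response had medians of -0.139 and 0.209, and 25 had a difference below 0. LTBP2, a matrix protein of the latent TGF-beta binding protein family, measured 7.21, 5.01 and 6.30 with CsA against 7.51, 6.71 and 8.68, and 9.16, 9.81 and 9.58 with Fk against 7.98, 8.46 and 9.15. Its Fk arrays lay above their controls and its CsA arrays overlapped theirs, with a difference of -2.45 (95% interval -3.70 to -1.20). CCN2, a matricellular target of TGF-beta, had effects of -2.01 and -0.06. This list was lower in the CsA controls than in the Fk controls by a median of 1.04, with 9 of 28 called lower, against 747 of all 11356 genes. The part of that starting level in the difference was not tested.

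Immediate early genes (23 measured) had medians of -0.175 and 0.297, and 17 had a difference below 0. EGR1, an early growth response factor, had effects of -1.20 and 0.30, and SPRY4, a feedback inhibitor of growth factor signalling, 0.00 and 1.18. The 10 genes of metallothioneins and zinc had medians of -0.38 and 0.332, and 9 had a difference below 0. MT1G and MT1M, zinc-binding metallothioneins, had differences of -0.96 and -1.07, and all their groups overlapped. Cytokines and NF-kB targets (26 measured) had medians of -0.526 and 0.00438. TNFSF10 (TRAIL), a death receptor ligand, was the called member, where 0.722% of all genes were called lower. It fell by 1.5 with CsA (limma adjusted p = 0.0246) with an Fk effect of -0.27.

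No kidney injury marker passed the test of the difference, as no gene tested did. Of 27 measured, 0 were called under CsA, under Fk or in the difference, with medians of -0.207 and 0.044. Of all genes, 0.299% were called higher and 0.722% lower under CsA, and 0% under Fk or in the difference. HAVCR1 (KIM-1), shed by injured proximal tubule, measured 10.53, 9.31 and 9.84 with CsA against 10.93, 10.25 and 10.43, and 8.91, 10.03 and 10.39 with Fk against 9.71, 9.98 and 10.66. Its difference was -0.30 (95% interval -1.38 to 0.77), and it was 0.00 without replicate 3 of Fk. LCN2 (NGAL), an iron-carrier protein of injured tubules, followed the replicate number, with 5.28, 8.15 and 13.28 with CsA against 3.67, 7.85 and 12.75, and the interval of its difference ran from -4.33 to 5.43. CLU (clusterin), a secreted chaperone, had a difference of -0.38 and was 1.29 higher in the CsA controls (limma adjusted p = 0.003153). ABCB1, the efflux pump that exports both drug classes, had effects of -0.82 and -0.30 and an interval of the difference from -1.67 to 0.63.

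At 12 h the same difference of effects was called in 0 genes (limma, 165 with an unadjusted p under 0.05), and the change of the difference between 12 h and 48 h in 0 genes (limma, 252 with an unadjusted p under 0.05). The replication list had a median difference of -0.112 at 12 h against -1.03 at 48 h, the mitotic list -0.31 against -0.778, and the ER list 0.313 against 0.571. For the ER list the 12 h medians were 0.39 under CsA and 0.0394 under Fk. Of the 82 genes that fell with CsA at 48 h, 72 had a CsA effect below 0 at 12 h, with a median of -0.0983, and of the 34 that rose 29 were above 0, with a median of 0.125. Over all genes, the CsA effect had the same sign at both times in 6770 of 11356. ASF1B had a difference of -0.64 at 12 h and CCM2L of -0.89, while THUMPD3-AS1 had 0.00 and HMGA2 -0.18.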

How the data were processed

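Gene expression was measured on 48 arrays, and the deposited values are log2 intensities for which the submitters' processing notes name GCRMA, with a version not given in the sources used here. GCRMA subtracts probe background by sequence and summarises probes to 54675 probe sets, and values near the lower end of the scale are less certain in size. By the array annotation, 41091 probe sets name 1 gene, 1801 name more than 1, and 11721 have no entry there. Probe sets above log2 4 on at least 3 arrays were kept, and the probe set of highest mean stood for a gene. One limma fit (3.58.1 in R 4.3.3) over all 16 groups gave each contrast, and p-values were adjusted over 11356 genes by Benjamini-Hochberg. Arrays of the same replicate number deviated together in all 18 pairs of the CsA set (correlation 0.243 to 0.926) and in 19 of 45 pairs of the Fk and Ra set (correlation over 0.1), so the block was applied to the CsA set. RefSeq promoters were found for 9370 genes. The comparison, the gene lists and the named genes were chosen with earlier results of these data known. The named genes are the 10 of lowest p in each direction of the difference, the called genes of the mean effect and a fixed set that includes the calcineurin, cyclophilin and injury genes. Genes called with the block and other examples from the lists were chosen after their values were seen. Alternatives changed the normalization, filter, probe set rule, block, weights, arrays fitted and each array left out. The Ra effect is given for a few genes only, chosen after their values were seen. The 2 arrays of low upper quartile were replicate 2 of Ra at 48 h (6.203) and replicate 3 of Fk at 12 h (6.846). The number of arrays limits the precision.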

Additional observations from a re-analysis of the deposited data

Results flagged for a closer look

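With the replicate number as a block in the CsA set, the test of the difference itself separated the CsA effect from the Fk effect in 6 genes (limma, Benjamini-Hochberg adjusted). The differences were -3.373 for CCM2L, -2.725 for ASF1B, -2.377 for ANKRD36B, -2.291 for MIR146A, -1.764 for HMGA2 and 1.042 for THUMPD3-AS1 (log2), with adjusted p from 0.022 to 0.0468. Without the block none of the 6 was called, and the lowest adjusted p was 0.1052. ASF1B was called in 15 of 36 alternatives, THUMPD3-AS1 in 13, CCM2L in 12, HMGA2 in 11, ANKRD36B in 8 and MIR146A in 5.

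In 43 genes the CsA arrays and the Fk arrays both lay apart from their controls in opposite directions (0.379% of genes). None of them was called in the test of the difference without the block (limma, Benjamini-Hochberg adjusted).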

How the results depend on the processing

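The difference of effects, called in 0 genes, was called in 1 with the 12 arrays alone, 20 with the replicate block, 6 with the block in the CsA set only, 4 after quantile normalization, 3 with every probe set on its own, 82 with array weights (which did not fully converge) and 0 to 34 when an array or number was left out (34 without replicate 1 of CsA). For the settings chosen after seeing the data, it was called in 8 without the 2 arrays of low upper quartile, 22 with the CsA block as well, 20 and 4 with that block and without CsA numbers 1 and 3, and 1 and 5 without Fk-set numbers 1 and 3. In the same order of settings, where the count moved by over 1.5 times, the mean effect (1 gene) gave 0 without the Nnm arrays, 106 and 8 with the blocks, 0 after quantile normalization, 4 without a filter, 0 above log2 6, 3 for the mean of probe sets, 7 for every probe set, 0 with trend and robust fitting, 223 with weights, 0 to 88 with an array left out, 61 with the CsA block and without the low arrays, 48 and 2 without CsA numbers 1 and 3, and 5, 0 and 27 without Fk-set numbers 1, 2 and 3. The CsA effect (116 genes) gave 0 with the 12 arrays alone, 12 without the Nnm arrays, 498 and 217 with the blocks, 647 with weights, 2 to 391 with an array left out, 198 without the low arrays, 464 with the CsA block as well, 11 and 22 without CsA numbers 2 and 3, and 380, 176 and 372 without Fk-set numbers 1, 2 and 3. The Fk effect (0 genes) gave 1 with the 12 arrays alone, 8 with the replicate block, 12 without a filter, 10 with weights, 0 to 5 with an array left out, 5 and 8 without the low arrays (8 with the CsA block), 1 and 1 without CsA numbers 1 and 2, and 2 without Fk-set number 3. The control difference (1311 genes) gave 2628 with the replicate block, 2050 for every probe set, 3299 with weights, 385 to 1369 with an array left out, 2724 with the CsA block without the low arrays and 397 without CsA number 1. Without a filter 3 genes were called at 12 h and 1 between the times. The cause of these moves was not tested. The sign of the difference turned for RCAN1 (-0.08637 for the mean of probe sets, -0.3514 to 0.3902 with an array left out, and, with the CsA block, -0.08446 without CsA number 2 and -0.393 without Fk-set number 3), PPIF (-0.4805 to 0.187), HAVCR1 (-0.7363 to 0.042), LCN2 (-0.9267 with weights, -1.661 to 2.88), HSPA5 (-0.00109 to 0.694), HMGCS1 (-0.691 to 0.1206) and KCNMA1 (0.2156 for the mean of probe sets, -0.6732 to 0.111). None of these was called. The median difference kept its sign in all 36 alternatives for the replication list (-1.279 to -0.7138), the mitotic list (-1.061 to -0.297) and the ER list (0.1465 to 0.9384).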

Other observations

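Entry into S phase is driven by G1 cyclins and restrained by inhibitors of cyclin-dependent kinases. Of 17 such genes measured, 1 fell with CsA, against 0.722% of all genes, and 0 were called with Fk. The list medians were -0.159 and -0.0796. CDC25A, the phosphatase that activates the cyclin-dependent kinases of S phase entry, was the called gene. It measured 4.75, 4.89 and 4.26 with CsA against 5.72, 5.70 and 5.48, and 5.44, 5.44 and 5.16 with Fk against 5.60, 5.65 and 5.63. Arrays of both compounds lay below all their controls, with effects of -1.0 (limma, Benjamini-Hochberg adjusted p = 0.02562) and -0.28 (not called). SKP2, which marks cyclin inhibitors for degradation, had effects of -1.19 and 0.51 and a difference of -1.70 that was not called (limma adjusted p = 0.5165).

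Lists of general cell functions had small median differences. The median was -0.0481 for 25 genes of ribosome biogenesis and MYC targets, -0.0303 for 26 genes of the mitochondrial respiratory chain, 0.084 for 26 genes of lysosome and autophagy, 0.101 for 21 NRF2 targets and 0.0603 for 15 heat shock genes, against -0.0243 over all genes. Their members included 0 calls in the difference. Among 28 genes of apoptosis, FAS, a death receptor, had effects of -0.81 and 0.20 and a difference of -1.01, also not called.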
